A study of Homo sapiens with 4 samples.

Results

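The glycolysis, lactate export and hypoxia genes are 35 genes of the deposited count table, picked by gene symbol for their known roles. All 35 were found among 61267 rows. They fall into 3 classes: 4 sugar and lactate transporters, 22 enzymes (17 of glycolysis, 3 PFKFB enzymes and 2 pyruvate dehydrogenase kinases), and 9 HIF genes, which are the hypoxia factor HIF1A, 2 of its oxygen sensors and 6 of its targets outside glycolysis. RNA was sequenced from SU-DHL-2, an established human line of diffuse large B-cell lymphoma whose genotype is given as WT in both groups. There were 2 libraries of cells given Spautin-1, an inhibitor of the deubiquitinases USP10 and USP13, at 10 µM for 36 h, and 2 libraries of cells given solvent alone, called vehicle. Whether the libraries of a group came from separate cultures is not stated in the labels. The p-values therefore reflect variation among 4 libraries of 1 cell line, and part or all of that variation may be technical.

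Glycolysis splits glucose into pyruvate in the cytosol, and lactate dehydrogenase then turns pyruvate into lactate, which leaves the cell through monocarboxylate transporters. Activated and malignant B cells are known for high glucose uptake and lactate release even with oxygen present. HIF1 is a transcription factor whose alpha subunit, HIF1A, is hydroxylated by EGLN oxygen sensors and then degraded. When oxygen is low the subunit accumulates and switches on glucose transporters, glycolytic enzymes, pyruvate dehydrogenase kinases and genes of mitophagy and blood vessel growth.

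Raw read counts summed to between 34893634 and 38325536 in the Spautin-1 libraries and to between 34115420 and 38362526 in the vehicle libraries. Levels are given as TMM-scaled CPM, which are read counts divided by the effective library size. Means are given ± SD with n = 2, and changes as log2 fold change ± SE of Spautin-1 over vehicle. A gene was called when its Benjamini-Hochberg adjusted p over all 18368 genes tested was under 0.05 in the edgeR quasi-likelihood test. The median absolute log2 difference between replicates over these genes was 0.179 for Spautin-1 and 0.257 for vehicle. Of 9 B-cell markers, 8 were above 1 CPM, MS4A1 at 629 and 608 CPM in Spautin-1 and 442 and 379 CPM in vehicle, while the immunoglobulin heavy chain gene IGHM was at 0.0533 CPM or less in each library. None of 5 T-cell and 5 myeloid markers reached a mean of 1 CPM. The epithelial adhesion gene EPCAM was detected at 50.5 and 54.7 CPM in Spautin-1 and 45.5 and 51.7 CPM in vehicle.

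Of the 35 genes, 8 rose, 5 fell, 21 were not called and 1, EGLN3, had too few reads to test. Over all genes tested, 22.0% were called, 11.5% higher and 10.5% lower in Spautin-1. The median log2 fold change was 0.12 over the 34 members tested and -0.01 over all genes tested. The classes are small, and a difference between their counts was not tested. All 4 transporters were called, 1 higher and 3 lower. Among the 22 enzymes 4 rose and 2 fell, which is 27.3% called and near the share over all genes. Of the 9 HIF genes 8 were tested, 3 rose and none fell, and none was lower by DESeq2, by limma-voom or at an unadjusted edgeR p under 0.05. HIF also switches on glucose transporters and glycolytic enzymes, which are counted in the other classes and were called in both directions. In bulk RNA, a level that changed in every cell and a change in the share of cells cannot be told apart. Spautin-1 and vehicle libraries did not overlap for 16 members upward and 9 downward; over all genes tested 61.4% were separated, 30.8% upward and 30.6% downward. Without Spautin-1 replicate 1 and without Spautin-1 replicate 2, 8 and 6 of the 13 calls remained, and without either vehicle library 12 of 13. The 4 libraries together gave 2112 calls higher and 1933 lower over all genes. Both numbers were smaller when 1 Spautin-1 library was left out and larger when 1 vehicle library was. The larger numbers include new calls, unlike the count kept of the 13.

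**Figure D1:**
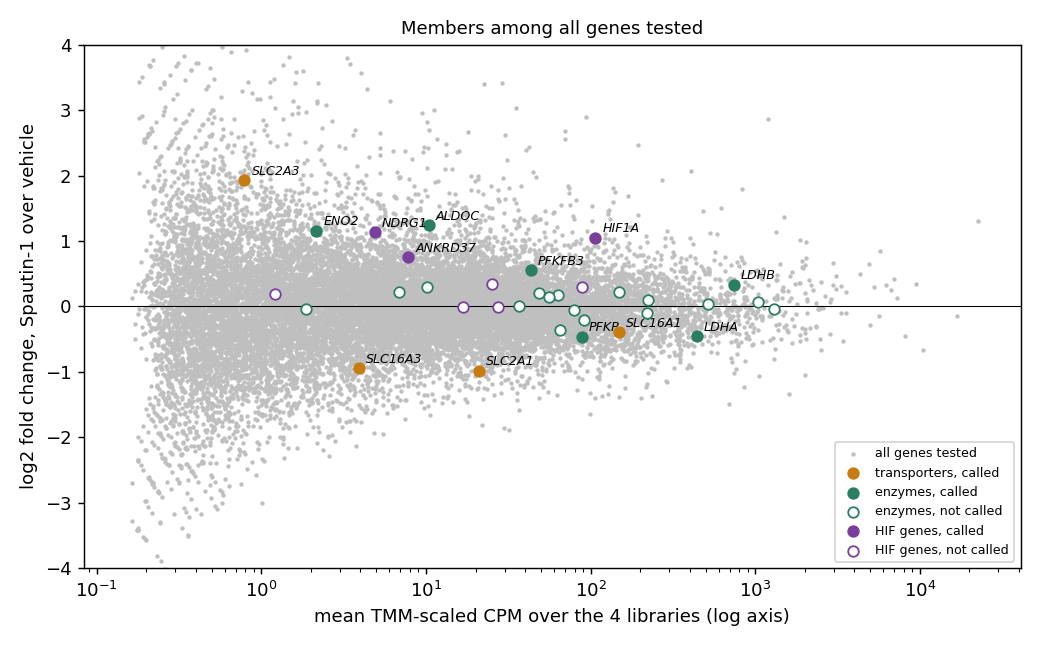
Log2 fold change of Spautin-1 over vehicle (vertical axis) against the mean TMM-scaled CPM over the 4 libraries (log horizontal axis) for all 18368 genes tested in grey and the 34 members tested in colour. Filled points passed the edgeR test and carry their names, and 50 genes beyond 4 on the vertical axis are outside the plot. The called transporters SLC2A1, SLC16A1 and SLC16A3 lie below 0 and HIF1A at 1.05 above it.

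RefSeq promoters (GRCh38.p14, 250 bases before to 50 after a start) were available for 29 of the 35 genes, 56 promoters in all because several genes have more than 1 start. HIF binds the cores ACGTG and GCGTG, which were searched on both strands. The promoters below are examples in which the cores stand in windows of genes that rose, fell or were not called. They are from LDHA, which fell, ALDOC and ANKRD37, which rose, and PGK1, which was not called. A second LDHA window (chr11:18396101-18396400), not shown, holds 0 ACGTG matches and 1 GCGTG match. The GCGTG match shown for LDHA and 1 ACGTG match of PGK1 begin 38 and 28 bases after the start. Capitals mark the cores or their reverse complements; a CACGTG, the E-box also bound by MYC, holds ACGTG on both strands and counts as 2 matches. The LDHA window (chr11:18394313-18394612, plus strand) holds 5 ACGTG matches, with 2 CACGTG, and 1 GCGTG match. The ALDOC window (chr17:28576846-28577145, minus strand) holds 3 ACGTG matches, with 1 CACGTG, and 2 GCGTG matches. The ANKRD37 window (chr4:185396591-185396890, plus strand) holds 3 ACGTG matches, with 1 CACGTG, and the PGK1 window (chrX:78103998-78104297, plus strand) 3 ACGTG matches and 1 GCGTG match.
LDHA: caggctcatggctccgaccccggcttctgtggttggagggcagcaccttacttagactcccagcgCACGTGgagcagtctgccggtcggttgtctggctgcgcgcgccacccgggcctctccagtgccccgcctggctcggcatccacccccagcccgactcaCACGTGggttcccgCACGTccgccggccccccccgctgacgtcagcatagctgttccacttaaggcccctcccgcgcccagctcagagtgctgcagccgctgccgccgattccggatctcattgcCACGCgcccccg
ALDOC: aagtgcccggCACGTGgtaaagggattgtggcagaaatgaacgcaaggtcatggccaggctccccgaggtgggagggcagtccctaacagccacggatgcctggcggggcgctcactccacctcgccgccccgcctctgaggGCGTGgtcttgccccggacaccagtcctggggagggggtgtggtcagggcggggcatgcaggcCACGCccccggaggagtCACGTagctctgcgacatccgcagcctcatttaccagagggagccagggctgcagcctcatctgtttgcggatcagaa
ANKRD37: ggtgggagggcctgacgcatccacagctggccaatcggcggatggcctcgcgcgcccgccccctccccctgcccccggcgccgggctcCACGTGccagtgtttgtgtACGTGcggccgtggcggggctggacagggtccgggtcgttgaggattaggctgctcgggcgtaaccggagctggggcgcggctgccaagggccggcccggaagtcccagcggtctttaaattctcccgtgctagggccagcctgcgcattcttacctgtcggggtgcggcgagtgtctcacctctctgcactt
PGK1: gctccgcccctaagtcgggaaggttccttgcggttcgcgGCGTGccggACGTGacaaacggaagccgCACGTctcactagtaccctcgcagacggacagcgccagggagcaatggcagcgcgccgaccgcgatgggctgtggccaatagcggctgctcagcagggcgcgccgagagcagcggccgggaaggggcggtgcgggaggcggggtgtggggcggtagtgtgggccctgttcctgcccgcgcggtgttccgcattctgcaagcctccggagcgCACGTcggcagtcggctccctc

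Among the 56 promoters, 41.1% held ACGTG and 39.3% GCGTG, and the shares over all 35116 RefSeq promoters were 21.4% and 36.5%. CACGTG was in 14.3% of the members' promoters and in 7.26% of all. ACGTG stood in 4 of 8 promoters of genes that rose, 3 of 12 of genes that fell and 16 of 35 of genes not called. Promoters of 1 gene share sequence, several members were listed because they are known HIF targets, and a match in letters is not a bound site.

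The transporters for glucose moved in opposite directions. SLC2A1 (GLUT1, the main basal glucose carrier of blood cells; chromosome 1, 42925353 to 42958893, GRCh38) was at 13.4 and 14.8 CPM in Spautin-1 and at 20.8 and 34.9 CPM in vehicle. Both Spautin-1 libraries lay below both vehicle libraries, and the vehicle libraries themselves stood far apart. SLC2A1 fell 1.98-fold, to a mean of 14.1 ± 1.03 CPM in Spautin-1 against 27.9 ± 10.0 CPM in vehicle (log2 fold change -0.98 ± 0.21, edgeR adjusted p = 0.0062). It was called in each fit that left out 1 library, with values from -1.31 to -0.56.

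SLC2A3 (GLUT3, a high-affinity glucose carrier; chromosome 12, 7919230 to 8019007) had few reads, 56 and 35 reads in Spautin-1 and 10 and 14 reads in vehicle. It rose 3.81-fold (log2 fold change 1.93 ± 0.55, edgeR adjusted p = 0.0249), and omitting Spautin-1 replicate 1 left it at 1.61, which was not called (adjusted p = 0.225). The processed copy genes of SLC2A3 held more reads than the gene itself, 402 and 329 in Spautin-1 and 382 and 300 in vehicle, so the assignment of its few reads is uncertain. By counts per kilobase of exon, SLC2A3 was 9.23% and 5.85% of the summed SLC2A1 and SLC2A3 level in Spautin-1 and 1.25% and 0.937% in vehicle. The sum of both was 2.23 and 2.38 CPM per kilobase in Spautin-1 and 3.18 and 5.33 in vehicle.

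Both lactate transporters among the members fell. SLC16A1 (MCT1, which moves lactate and pyruvate with protons; chromosome 1, 112911847 to 112957593) was at 122 and 134 CPM in Spautin-1 and 177 and 159 CPM in vehicle. The groups did not overlap, and SLC16A1 fell 1.31-fold (log2 fold change -0.39 ± 0.11, edgeR adjusted p = 0.022). SLC16A3 (MCT4, the export carrier of glycolytic cells and itself a HIF target; chromosome 17, 82217934 to 82261129) was at 2.05 and 3.29 CPM in Spautin-1 and 4.38 and 5.87 CPM in vehicle, and fell 1.92-fold (log2 fold change -0.94 ± 0.29, edgeR adjusted p = 0.0339). SLC16A1 was by far the higher of the 2, with 98.9% and 98.3% of their summed level per kilobase in Spautin-1 and 98.3% and 97.5% in vehicle. SLC16A7, a further carrier of this family, is not a member and is named after its value was seen. It was at 10.8 and 8.77 CPM in Spautin-1 and 10.3 and 7.22 CPM in vehicle. SLC16A7 was not called (log2 fold change 0.16 ± 0.21, edgeR adjusted p = 0.644).

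Neither SLC16A1 nor SLC16A3 kept its call in every fit that left out 1 library. The log2 fold change of SLC16A1 stayed between -0.47 and -0.32 in those fits, and that of SLC16A3 between -1.31 and -0.65. In the edgeR test, SLC16A1 lost its call when Spautin-1 replicate 1 was omitted, at -0.34 with an adjusted p of 0.259, or replicate 2, at -0.45 with an adjusted p of 0.123. SLC16A3 lost its call when Spautin-1 replicate 1 was omitted, at -0.65 with an adjusted p of 0.223, or vehicle replicate 2, at -0.72 with an adjusted p of 0.0733. SLC16A3 shares 482 exonic bases with CSNK1D on the opposite strand, which had 659% as many reads. The sources used here do not give the strand setting of the counting, so reads of CSNK1D and SLC16A3 in those bases cannot be told apart.

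**Figure D2:**
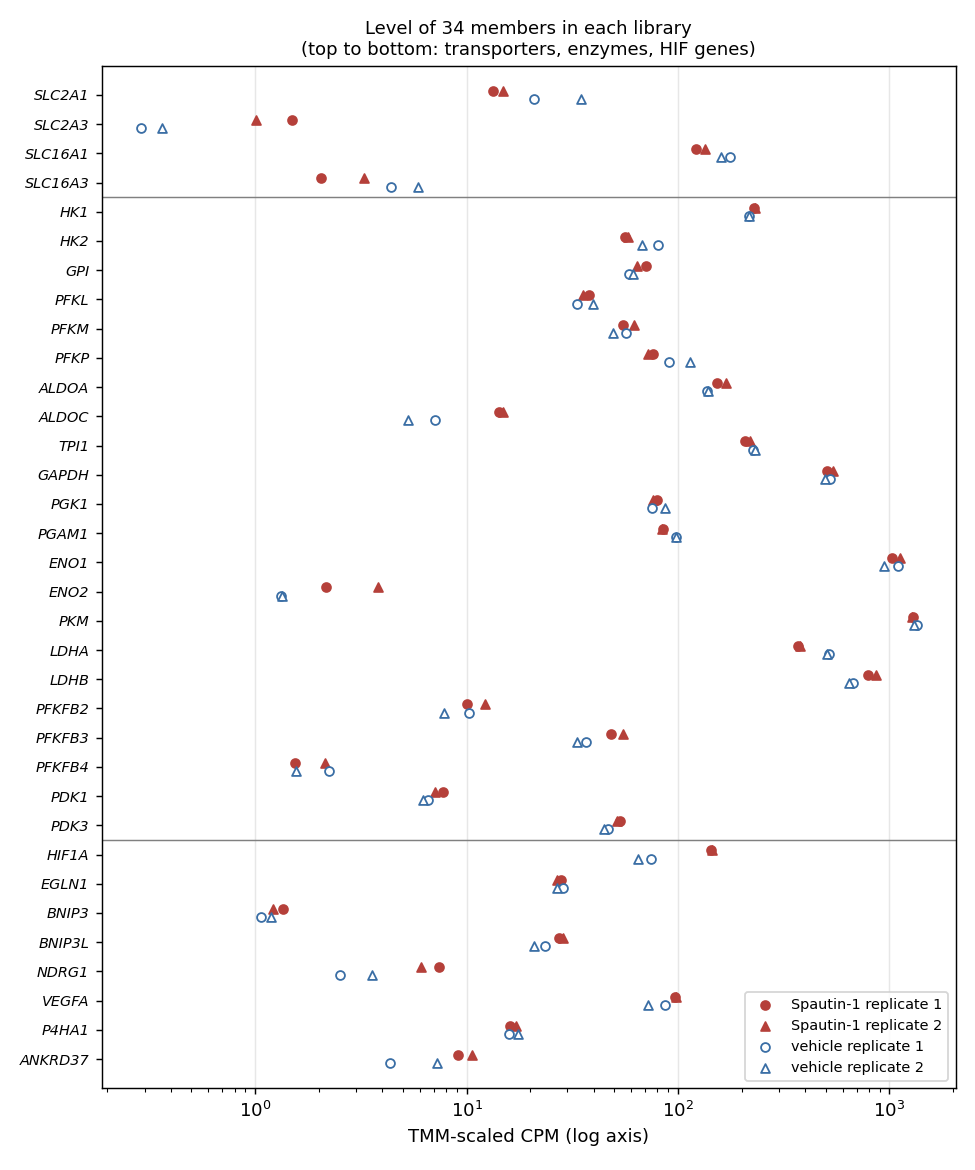
TMM-scaled CPM (log horizontal axis) of the 34 members tested, in each of the 4 libraries. Filled red symbols are Spautin-1 and open blue symbols vehicle, circles replicate 1 and triangles replicate 2, and grey lines part the transporters, the enzymes and the HIF genes. SLC2A1, SLC16A1 and SLC16A3 lie to the left in Spautin-1 and HIF1A to the right, while GAPDH, ENO1 and PGK1 overlap.

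The total over the 17 glycolytic enzymes overlapped between the groups, while several single steps did not. Of all single genes tested, 61.4% had groups that did not overlap, so a step without overlap is not unusual. The 17 enzymes added up to 1130 and 1192 CPM per kilobase in Spautin-1 and to 1144 and 1094 in vehicle. Each step is a sum over members only, so further paralogues such as ENO3 are left out. Aldolase, at 45.6 and 49.9 in Spautin-1 and 38.7 and 38.2 in vehicle, and lactate dehydrogenase, at 328 and 351 in Spautin-1 and 310 and 299 in vehicle, lay higher in both Spautin-1 libraries, as did glucose phosphate isomerase. Phosphofructokinase, at 21.7 and 21.8 in Spautin-1 and 23.3 and 25.96 in vehicle, lay lower in both, as did triose phosphate isomerase, phosphoglycerate mutase and pyruvate kinase. By this scale, which divides by the full exonic length, lactate dehydrogenase was the highest step, at 339 ± 16.4 in Spautin-1 and 304.5 ± 7.93 in vehicle. That rank depends on the divisor. In CPM without it pyruvate kinase was highest, with PKM at 1289 ± 4.01 in Spautin-1 and 1323.5 ± 32.1 in vehicle. LDHA was then at 373 ± 3.88 in Spautin-1 and 510 ± 7.75 in vehicle, and LDHB at 827 ± 47.1 in Spautin-1 and 656 ± 19.8 in vehicle. GAPDH was at 219 ± 9.98 in Spautin-1 and 213 ± 7.01 in vehicle, and enolase at 206 ± 12.1 in Spautin-1 and 196 ± 20.2 in vehicle, so these neighbours in the order did not differ beyond their spread. Glucose phosphate isomerase was the lowest enzyme step, at 6.31 ± 0.436 in Spautin-1 and 5.62 ± 0.176 in vehicle. Glucose uptake was lower still, but it sums SLC2A1 and SLC2A3 only and leaves out other sugar carriers.

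**Figure D3:**
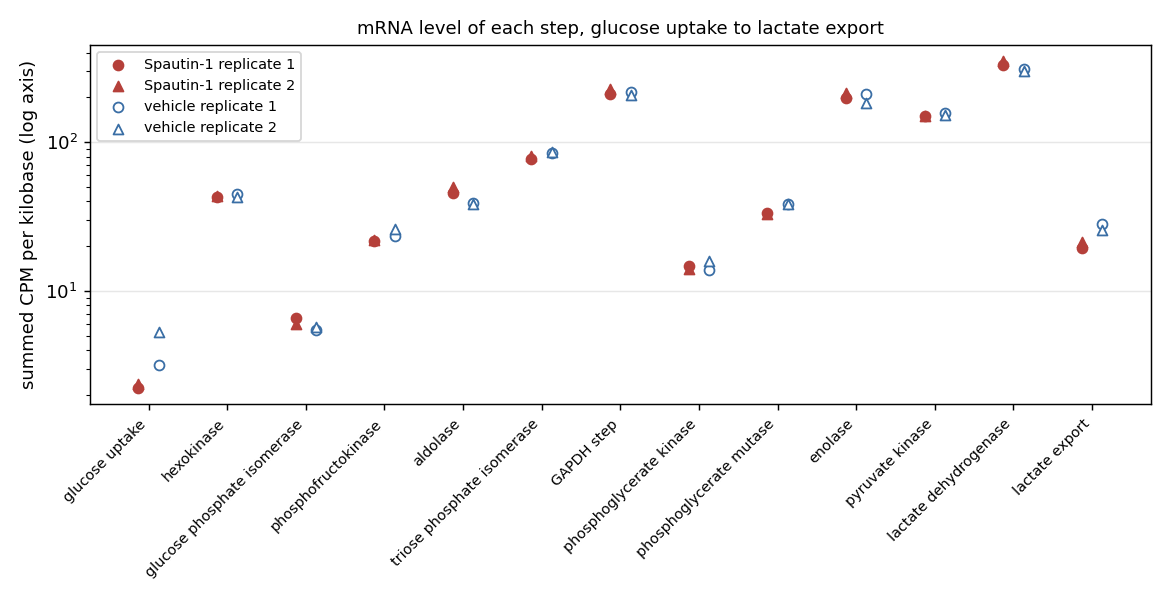
Summed CPM per kilobase of exon (log vertical axis) of the members in each step from glucose uptake to lactate export. Steps are in order along the pathway, with 1 point per library. Filled red symbols are Spautin-1 and open blue symbols vehicle, circles replicate 1 and triangles replicate 2. The uptake and export steps at the ends lie lower in Spautin-1 (2.23 and 2.38 against 3.18 and 5.33 for uptake), and aldolase lies higher.

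Hexokinase and phosphofructokinase are the regulated early steps. HK1, the constitutive hexokinase, was at 230 and 232 CPM in Spautin-1 and 217 and 217 CPM in vehicle and was not called (log2 fold change 0.09 ± 0.10, edgeR adjusted p = 0.547). HK2, the inducible hexokinase of tumour cells and a HIF and MYC target, was at 56.4 and 58.1 CPM in Spautin-1 and 80.2 and 67.3 CPM in vehicle. The groups did not overlap, but HK2 missed the threshold (log2 fold change -0.36 ± 0.12, edgeR adjusted p = 0.0529). It lay under 0.05 in 9 of 11 other ways of scaling, filtering and testing, and without vehicle replicate 2 (-0.49, adjusted p = 3.36e-05), so its call depends on the setting. HK2 made up 22.2% and 22.6% of the hexokinase level per kilobase in Spautin-1 and 30.1% and 26.5% in vehicle.

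Of the phosphofructokinases, which commit sugar to glycolysis, PFKP (chromosome 10, 3066333 to 3137718) fell 1.38-fold. It was at 76.6 and 72.4 CPM in Spautin-1 and 91.0 and 114 CPM in vehicle (log2 fold change -0.46 ± 0.13, edgeR adjusted p = 0.0225). The call was lost when Spautin-1 replicate 1 was omitted, at -0.52 with an adjusted p of 0.0806, and when replicate 2 was, at -0.42 with an adjusted p of 0.208. PFKL (0.01 ± 0.13) and PFKM (0.14 ± 0.13) were not called, and the sign of PFKL changed with upper quartile or library size scaling. PFKP held 45.4% and 42.7% of the phosphofructokinase level per kilobase in Spautin-1 and 50.3% and 56.7% in vehicle.

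PFKFB3 (chromosome 10, 6144934 to 6254644), which makes the main allosteric activator of phosphofructokinase, rose 1.47-fold. It was at 48.1 and 54.9 CPM in Spautin-1 and 36.8 and 33.3 CPM in vehicle, with no overlap (log2 fold change 0.56 ± 0.13, edgeR adjusted p = 0.00969). Omitting Spautin-1 replicate 2 left 0.47, which was not called (adjusted p = 0.177). The related PFKFB2 (0.30 ± 0.20, edgeR adjusted p = 0.298) and PFKFB4 (-0.04 ± 0.35, edgeR adjusted p = 0.949) were not called, and PFKFB4 was at 1.84 ± 0.417 CPM in Spautin-1 and 1.9 ± 0.49 CPM in vehicle. Leaving out vehicle replicate 1 put PFKFB2 past the threshold (0.52, adjusted p = 0.0386) and turned PFKFB4 to 0.24.

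Of the members in the aldolase and enolase steps, the minor paralogues ALDOC and ENO2 rose while the abundant ALDOA and ENO1 were not called. ALDOC (chromosome 17, 28573115 to 28576948), the brain-type aldolase, was at 14.3 and 15.0 CPM in Spautin-1 and 7.11 and 5.28 CPM in vehicle. It rose 2.36-fold (log2 fold change 1.24 ± 0.19, edgeR adjusted p = 0.000866) and was called whichever library was left out, at 1.04 to 1.47. ALDOA, the abundant aldolase, was at 153 and 169 CPM in Spautin-1 and 138 and 138 CPM in vehicle (0.22 ± 0.10, edgeR adjusted p = 0.148), but it was called higher with the GC offset (0.29, adjusted p = 0.0456). ALDOC held 12.0% and 11.5% of the aldolase level per kilobase in Spautin-1 and 7.03% and 5.29% in vehicle. ALDOA shares 1639 exonic bases, 42.8% of its exons, with a row on the same strand, ENSG00000285043, which had 99.6% as many reads.

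ENO2 (chromosome 12, 6913745 to 6923698), the neuronal enolase, was at 2.16 and 3.81 CPM in Spautin-1 and 1.32 and 1.35 CPM in vehicle, on 46 to 132 reads a library. It rose 2.23-fold (log2 fold change 1.16 ± 0.35, edgeR adjusted p = 0.0355), and the call was lost when Spautin-1 replicate 2 was omitted, at 0.70 with an adjusted p of 0.393, and with limma-voom, with an adjusted p of 0.0586. ENO2 was 0.255% and 0.414% of the summed ENO1 and ENO2 level per kilobase in Spautin-1 and 0.147% and 0.173% in vehicle. ENO3, not a member and named after its value was seen, was above ENO2 in every library. It was at 71.5 and 72.4 CPM in Spautin-1 and 71.1 and 96.4 CPM in vehicle. ENO3 was not called (log2 fold change -0.22 ± 0.14, edgeR adjusted p = 0.298). ENO1, the main enolase, was at 1029 and 1116 CPM in Spautin-1 and 1096 and 947 CPM in vehicle, and was not called (0.07 ± 0.09, edgeR adjusted p = 0.642).

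The single-gene steps between them were not called. GAPDH was at 508 and 542 CPM in Spautin-1 and 522 and 498 CPM in vehicle (log2 fold change 0.04 ± 0.09). PGK1 was at 79.4 and 76.4 CPM in Spautin-1 and 75.5 and 86.7 CPM in vehicle (-0.06 ± 0.12). PKM, a pyruvate kinase gene, was at 1291.5 and 1286 CPM in Spautin-1 and 1346 and 1301 CPM in vehicle (-0.04 ± 0.08). TPI1 (-0.10 ± 0.10), PGAM1 (-0.21 ± 0.11) and GPI (0.17 ± 0.12) were not called either. Over the 12 glycolytic enzymes not called, log2 fold changes lay between -0.36 and 0.22 with SEs of 0.08 to 0.13. The sign of PGK1 and ENO1 turned without vehicle replicate 2, to 0.05 and -0.03.

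The 2 lactate dehydrogenase genes moved apart. LDHA (chromosome 11, 18394560 to 18408425), whose subunit favours making lactate from pyruvate, was at 370 and 376 CPM in Spautin-1 and 516 and 505 CPM in vehicle. Replicates were close together and the groups well apart, and LDHA fell 1.37-fold (log2 fold change -0.45 ± 0.09, edgeR adjusted p = 0.00391). LDHB (chromosome 12, 21635342 to 21757857), whose subunit favours the reverse reaction, was at 794 and 861 CPM in Spautin-1 and 670 and 642 CPM in vehicle, and rose 1.26-fold (log2 fold change 0.34 ± 0.09, edgeR adjusted p = 0.0174). LDHA was 18.8% and 17.8% of the lactate dehydrogenase level per kilobase in Spautin-1 and 27.6% and 28.0% in vehicle. In an exact permutation test of this share, 2 against 2 libraries cannot go below p = 0.333, the value it gave.

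Without Spautin-1 replicate 2, LDHA was at -0.45 with an edgeR adjusted p of 0.0607, and its value stayed between -0.47 and -0.44 whichever library was left out. LDHB lost its call when Spautin-1 replicate 1 was omitted, at 0.38 with an adjusted p of 0.0656, or replicate 2, at 0.28 with an adjusted p of 0.23. LDHB shares 997 exonic bases with a row on the same strand, ENSG00000285854, which had 99.9% as many reads and the same change, so nearly the same reads appear to have been counted for both rows.

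**Figure D4:**
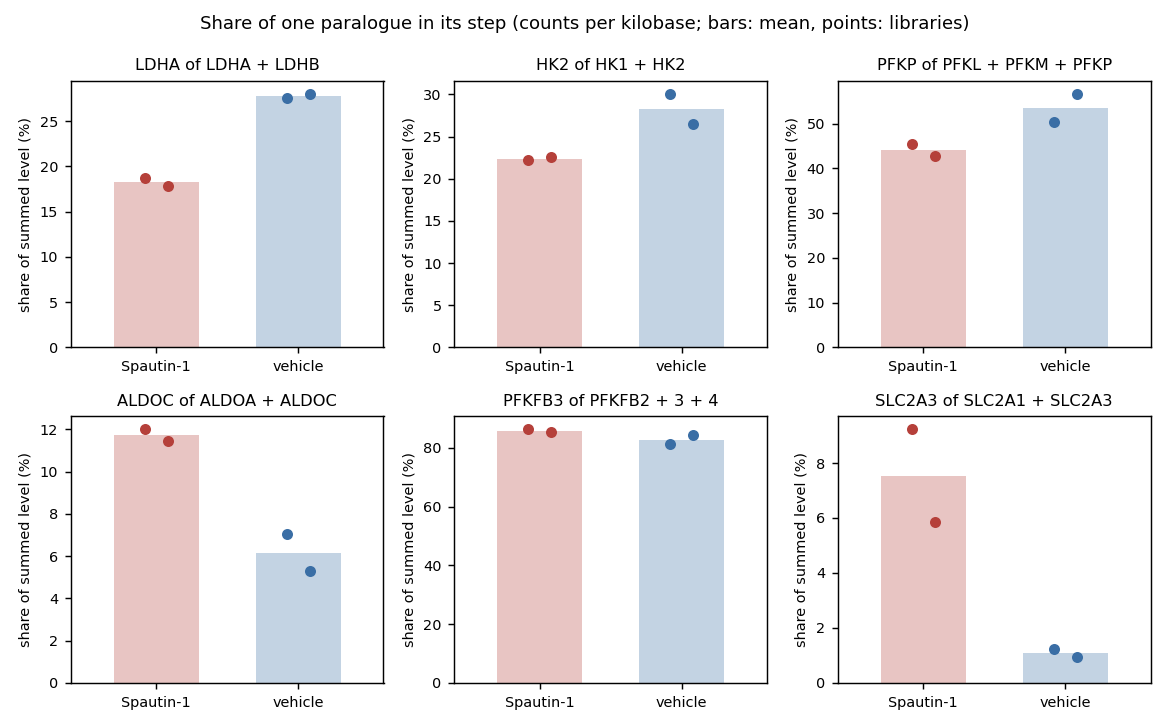
Share of 1 paralogue in the summed counts per kilobase of its step (vertical axes, percent, from 0), with bars for the mean and points for the libraries, Spautin-1 left and vehicle right. The LDHA share averaged 18.3% in Spautin-1 and 27.8% in vehicle, the HK2 share 22.4% in Spautin-1 and 28.3% in vehicle, and the ALDOC share 11.7% in Spautin-1 and 6.16% in vehicle.

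Pyruvate dehydrogenase kinases keep pyruvate out of the mitochondrion's oxidation by switching off pyruvate dehydrogenase. PDK1, a classic HIF target, was at 7.73 and 7.07 CPM in Spautin-1 and 6.54 and 6.21 CPM in vehicle, and PDK3 at 53.4 and 51.3 CPM in Spautin-1 and 46.5 and 44.5 CPM in vehicle. Neither was called, at 0.22 ± 0.19 (edgeR adjusted p = 0.471) and 0.20 ± 0.12 (edgeR adjusted p = 0.251), although their groups did not overlap. Neither was called by DESeq2 or limma-voom or had an unadjusted edgeR p under 0.05.

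HIF1A (chromosome 14, 61695513 to 61748259) had the smallest p among the members. It was at 143 and 145 CPM in Spautin-1 and 74.7 and 64.4 CPM in vehicle, and rose 2.07-fold, to 144 ± 1.48 CPM in Spautin-1 against 69.5 ± 7.3 CPM in vehicle (log2 fold change 1.05 ± 0.11, edgeR adjusted p = 7.78e-05). The call held whichever library was left out, at 0.95 to 1.16. Of 3 overlapping rows 2 rose. ENSG00000258964, which shares 148 of its 720 exonic bases with HIF1A and 565 with the neighbouring gene SNAPC1, had 4469 and 4449 reads in Spautin-1 and 1537 and 1387 in vehicle. SNAPC1 itself had 7695 and 7258 reads in Spautin-1 and 2483 and 2512 in vehicle. The opposite-strand HIF1A-AS3, with 299 shared bases, had 840 and 927 reads in Spautin-1 and 489 and 398 in vehicle. HIF1A-AS1, with 133 shared bases, had 251 and 213 reads in Spautin-1 and 203 and 196 in vehicle and was not called (0.24, edgeR adjusted p = 0.463). HIF1A itself had 5365 and 5027 reads in Spautin-1 and 2594 and 2487 in vehicle, and the part of shared reads in its change was not tested. These are mRNA levels, and HIF1A protein was not measured here.

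The oxygen sensors were not called. EGLN1, the main HIF hydroxylase, was at 27.9 and 26.8 CPM in Spautin-1 and 28.5 and 26.8 CPM in vehicle (log2 fold change -0.01 ± 0.13, edgeR adjusted p = 0.955). It shares 3004 exonic bases, 55.8% of its exons, with a row on the same strand, ENSG00000287856. That row had 83.0% as many reads and was not called (-0.005, edgeR adjusted p = 0.984). EGLN3, a hydroxylase that HIF itself induces, had 0 reads in all 4 libraries, which allows up to 3 reads or at most 0.0879 CPM in a library, by counting error alone.

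Of the HIF targets outside glycolysis, 2 of 6 rose and none fell; over all genes tested 11.5% rose and 10.5% fell. NDRG1 (chromosome 8, 133237175 to 133302022), a stress and differentiation gene, was at 7.41 and 6.06 CPM in Spautin-1 and 2.53 and 3.57 CPM in vehicle, and rose 2.2-fold (log2 fold change 1.14 ± 0.25, edgeR adjusted p = 0.00675). It was called whichever library was left out, at 0.91 to 1.41. ANKRD37 (chromosome 4, 185396021 to 185400628), an ankyrin-repeat gene, was at 9.09 and 10.6 CPM in Spautin-1 and 4.35 and 7.27 CPM in vehicle, and rose 1.69-fold (log2 fold change 0.75 ± 0.24, edgeR adjusted p = 0.0412). Its call was lost when vehicle replicate 1 was omitted, at 0.43 with an adjusted p of 0.113, and when Spautin-1 replicate 2 was, at 0.65 with an adjusted p of 0.167; omitting vehicle replicate 2 gave 1.18. ANKRD37 shares 909 exonic bases with UFSP2 on the opposite strand, which had 196% as many reads and was not called (0.31, edgeR adjusted p = 0.209).

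VEGFA, the growth factor of blood vessels, was at 96.8 and 98.4 CPM in Spautin-1 and 87.2 and 72.4 CPM in vehicle (log2 fold change 0.29 ± 0.12, edgeR adjusted p = 0.106). The mitophagy receptor BNIP3L was at 27.4 and 28.7 CPM in Spautin-1 and 23.4 and 20.9 CPM in vehicle (0.34 ± 0.14, edgeR adjusted p = 0.0985). Both had Spautin-1 above vehicle in each library and passed without vehicle replicate 1, VEGFA at 0.43 (adjusted p = 0.000171) and BNIP3L at 0.42 (adjusted p = 0.00967). BNIP3, the related mitophagy receptor, was at 1.36 and 1.21 CPM in Spautin-1 and 1.07 and 1.19 CPM in vehicle (0.19 ± 0.40, edgeR adjusted p = 0.785). Its 44 copy genes together held 62 and 47 reads in Spautin-1 and 87 and 58 in vehicle, while BNIP3 itself held 51 and 42 in Spautin-1 and 37 and 46 in vehicle. P4HA1, a collagen prolyl hydroxylase, was at 16.1 and 17.1 CPM in Spautin-1 and 15.9 and 17.6 CPM in vehicle (-0.01 ± 0.15, edgeR adjusted p = 0.963).

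**Figure D5:**
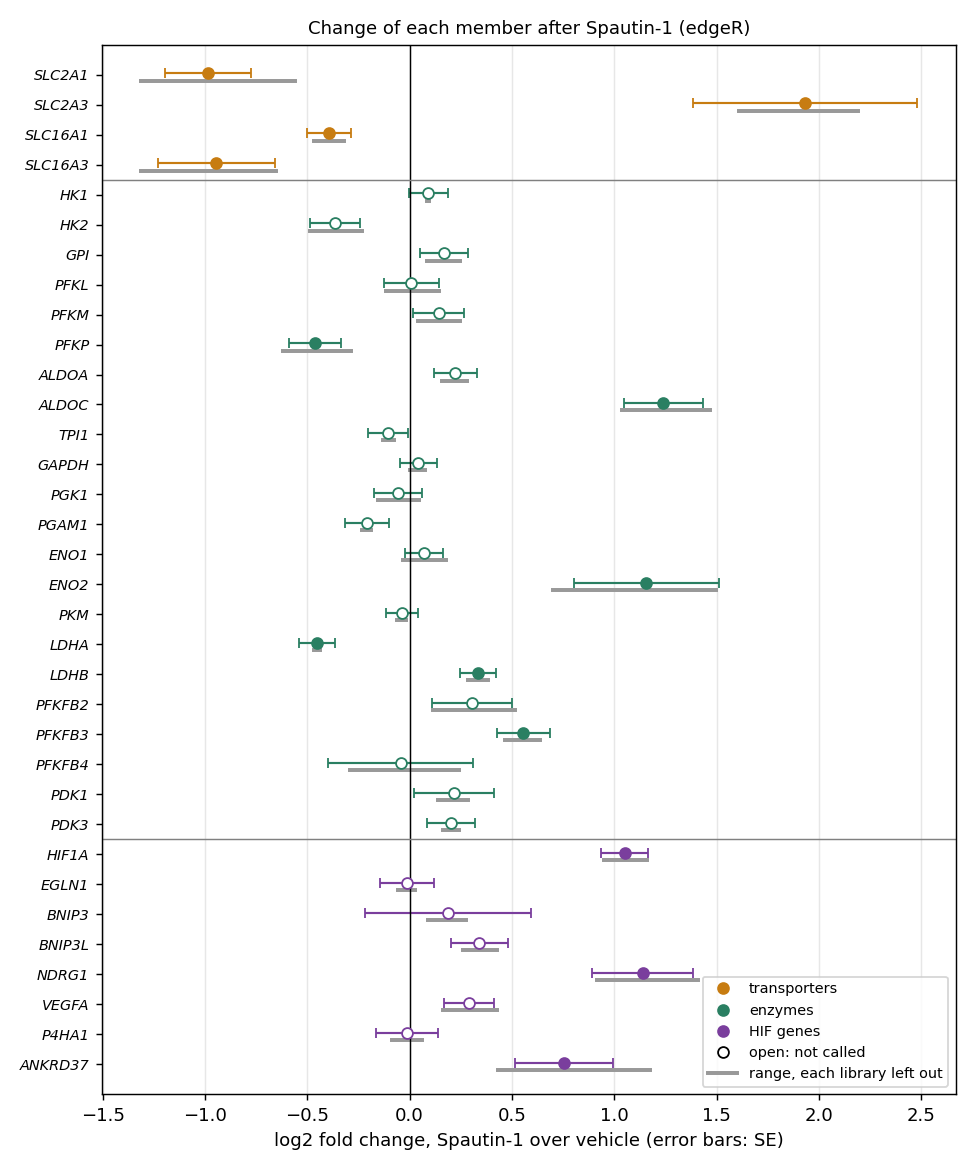
Log2 fold change of Spautin-1 over vehicle for the 34 members tested, with SE bars from edgeR; filled points passed the test and open points did not, and grey bars show the range when each library was left out in turn. Grey horizontal lines part transporters, enzymes and HIF genes. The points for SLC2A1 at -0.98 and LDHA at -0.45 lie left of 0, and those for HIF1A, ALDOC and NDRG1, at 1.05, 1.24 and 1.14, right of it.

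Other genes of these pathways were counted from 6 further lists holding 110 genes, to be read beside the 22.0% called over all genes tested. Of 20 other sugar and lactate transport genes 15 were tested, 1 rose and 2 fell, which is 20.0% called and below the share over all genes. BSG, the basigin chaperone that brings the SLC16A1 and SLC16A3 proteins to the cell surface, was at 82.2 and 91.5 CPM in Spautin-1 and 118 and 151 CPM in vehicle. It fell 1.55-fold (log2 fold change -0.63 ± 0.13, edgeR adjusted p = 0.00521) and was called whichever library was left out. SLC16A6, a monocarboxylate carrier of the same family, fell 1.46-fold (edgeR adjusted p = 0.0462), and lost its call when Spautin-1 replicate 1 was omitted, at -0.61 with an adjusted p of 0.171, or replicate 2, at -0.50 with an adjusted p of 0.297. It was also not called by DESeq2 (adjusted p = 0.0623) or with no filter (adjusted p = 0.0566). SLC2A13, a proton-linked inositol carrier, rose 2.49-fold, with 12.8 and 11.5 CPM in Spautin-1 and 4.69 and 5.07 CPM in vehicle (edgeR adjusted p = 0.000488).

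Genes that feed pyruvate into the mitochondrion were called in both directions, 2 of 12 tested higher and 1 lower, which is 25% and close to the 22.0% over all genes. MPC1, a subunit of the mitochondrial pyruvate carrier, rose 1.39-fold (edgeR adjusted p = 0.014) and PDHA1, a catalytic subunit of pyruvate dehydrogenase, 1.22-fold (edgeR adjusted p = 0.036). DLAT, the acetyltransferase of the same complex, fell 1.4-fold (edgeR adjusted p = 0.0193). Each of the 3 lost its call on omitting Spautin-1 replicate 1 or replicate 2, at 0.44 and 0.50 for MPC1, 0.32 and 0.24 for PDHA1 and -0.52 and -0.46 for DLAT. PDHA1 was also not called by DESeq2 (adjusted p = 0.069) or with library size scaling (adjusted p = 0.0692). In the pentose phosphate pathway, the branch that makes NADPH and ribose, 1 of 11 fell and none rose. TALDO1, the transaldolase, fell 1.4-fold (edgeR adjusted p = 0.0158), and lost its call on omitting Spautin-1 replicate 1, at -0.49 with an adjusted p of 0.112, or replicate 2, at -0.48 with an adjusted p of 0.138. On omitting vehicle replicate 1, 4 genes of that branch were lower and 2 higher. At an unadjusted p under 0.05, 1 pentose phosphate gene was higher, and none by DESeq2 or limma-voom.

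Of 13 other glycolysis genes tested, PGAM4, a copy of PGAM1 with 6 and 8 reads in Spautin-1 and 28 and 30 in vehicle, fell 4.01-fold (edgeR adjusted p = 0.0495). Its call was lost whichever library was omitted, at log2 fold changes of -2.27 to -1.77, and by DESeq2 and limma-voom. None rose by edgeR, DESeq2 or limma-voom, and 1 was higher at an unadjusted p under 0.05. None of 13 other genes of the HIF pathway was called by edgeR, DESeq2 or limma-voom. Named after its value was seen, EP300, a coactivator of HIF, was lower at an unadjusted p under 0.05 and was called lower with a replicate block, a length or GC offset, no filter, or vehicle replicate 2 omitted. The median log2 fold change of the 13 was -0.11.

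Of 30 other HIF targets 21 were tested, 5 rose and none fell, by edgeR, and 5 and none by DESeq2 and by limma-voom, and none was lower at an unadjusted p under 0.05. The share called, 23.8%, was close to the 22.0% over all genes, of which 11.5% rose. Their median log2 fold change was 0.21, against -0.01 over all genes. BHLHE40, a repressor that is also an early-response gene, was at 27.3 and 24.1 CPM in Spautin-1 and 4.26 and 5.69 CPM in vehicle, and rose 5.16-fold (log2 fold change 2.37 ± 0.18, edgeR adjusted p = 6.55e-06). DDIT4, a brake on mTOR that many stresses induce, was at 61.0 and 72.8 CPM in Spautin-1 and 24.5 and 26.7 CPM in vehicle, and rose 2.61-fold (edgeR adjusted p = 3.39e-05). The other 3 are named after their values were seen: RRAGD, a GTPase of nutrient sensing, MXI1, a MYC antagonist, and WSB1, a ubiquitin ligase adaptor, rose 2.01-fold, 1.6-fold and 1.34-fold (edgeR adjusted p of 0.0103 to 0.0179). BHLHE40, DDIT4 and RRAGD were called whichever library was left out, MXI1 and WSB1 were not called when either Spautin-1 replicate was, and 3 to 7 genes of the list were higher in those fits. The other 9 of the 30 did not pass the filter on low counts.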

How the data were processed

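RNA from 4 samples of SU-DHL-2 cells was made into stranded mRNA libraries, per the labels' protocols. Per the submitters' processing notes, Trimmomatic 0.36, featureCounts of Subread 1.5.1, edgeR 3.12.1 and the build GRCh38 were used; for the aligner, the release of the annotation, strandedness in counting and multi-mapping, no setting is given in those sources. The table the authors deposited holds whole-number read counts for 61267 genes, with exon coordinates and exonic length per the file headers. Of the members, 24 share exonic bases with another row, so reads there may move both rows.

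The fit used edgeR 4.0.16 in R 4.3.3: filterByExpr (minimum count 10, total 15) left 18368 genes, TMM scaling, a quasi-likelihood F test on group, two-sided, and Benjamini-Hochberg adjustment over all genes tested. SEs were taken from the log2 fold change and its F value. Exonic length divided CPM where genes were compared. RLE, upper quartile and library size scaling, other filters, DESeq2 1.42.0, limma-voom (limma 3.58.1), edgeR's robust option, a block on replicate number, loess offsets for length or for GC content (GENCODE 29, known for 89.8% of genes tested), a threshold of 0.01 and leaving out each library were tried. Named genes are all members and, from each further list, the 2 called genes with the smallest p in each direction; any other is said to be named after its value was seen. Members, lists and tests were chosen with earlier results of these data known. The procedure was tested on simulated data. With 2 libraries a group, 2 residual degrees of freedom remain.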

Additional observations from a re-analysis of the deposited data

How the results depend on the processing

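The 13 calls among the members kept their direction under all 15 other settings in which each was refitted, and 13 of 13 stayed called under 10 of the 11 settings that kept all libraries and the threshold, limma-voom losing ENO2. With the adjusted p threshold at 0.01, 4 members were higher and 2 lower, with 2 enzymes higher, 1 enzyme lower, 0 transporters higher and 1 transporter lower. When each library was left out in turn, the number of members higher ran from 4 to 10 and lower from 2 to 5; for enzymes it was 1 to 5 higher and 0 to 3 lower, for transporters 0 to 1 higher and 1 to 3 lower, and for HIF genes 2 to 4 higher. A fit with 1 library in a group assumes that it varies like the other group. The sign of PFKL, not called, turned to -0.0065 with upper quartile scaling, -0.0292 with library size scaling, -0.0030 when genes needed 1 CPM in 2 libraries, and -0.0666 with the length offset, and without a library it ran from -0.116 to 0.145. Leaving out libraries also turned the sign of uncalled PFKFB4 (-0.29 to 0.24), EGLN1 (-0.0585 to 0.0286), P4HA1 (-0.0861 to 0.0607), PGK1 (-0.16 to 0.0461) and ENO1 (-0.0310 to 0.18); the cause was not tested. With a replicate block 8 members were higher and 6 lower, HK2 being added at -0.36. The labels do not say that numbers pair cultures. Same-numbered deviations had a correlation of -0.00151 over genes, which does not settle whether same-numbered libraries shared a culture. The lowest genes, SLC2A3, PFKFB4, ENO2 and BNIP3, rest on 10 to 132 reads a library, which limits their precision.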
